A study of Mus musculus with 6 samples.

Results

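The interferon response genes described here are a list of 45 genes that interferons are known to induce or that carry the interferon signal, and they were chosen by symbol among the 32285 genes of the count matrices. Of the 45 genes, 43 matched a row of the files, and Mx1 and Mx2 were not analysed here. The list was chosen with earlier results of these data known, so member shares set beside those of all genes below are no independent test. Their transcripts were followed in epithelial cells of mouse ileal crypts, sorted for the epithelial surface protein EpCAM and measured by droplet single-cell RNA sequencing. The comparison asks whether these genes differ in level between Fpr2f/f mice, in which Fpr2 is flanked by loxP sites and left in place, and Fpr2VKO mice. Fpr2VKO mice carry the same floxed Fpr2 alleles and a Cre recombinase driven by the Villin promoter, which is active throughout the gut epithelium and not in 1 cell type only. The floxed mice were on the C57BL/6J background, and the background of the Cre line is not given in the sources used here. No treatment is given for either group, and both came from a study that used sex- and age-matched young adults. There were 3 libraries per group. The legends of the study give as many mice per group as there are libraries, but the labels do not tie a library to a mouse, so the p-values measure the spread between these libraries.

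Interferons are secreted signal proteins, and cells release those of type I and type III when they sense viral or bacterial nucleic acids. Type I and type III interferons signal through JAK kinases to a complex that holds STAT2 and IRF9. This complex binds the interferon-stimulated response element (ISRE) in the promoters of its targets. Interferon gamma, the type II interferon, acts on promoters that hold the gamma-activated site (GAS) and through IRF1. The targets include sensors of viral RNA, enzymes that degrade or modify RNA, GTPases that attack membranes around microbes, and the ubiquitin-like protein ISG15. In the gut, epithelial cells respond mostly to type III interferon, and a low level of these genes is held up without infection by signals from the microbiota.

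The libraries held 90142126 to 189516114 unique molecular identifiers (UMIs, each marking 1 captured transcript), and 17104 barcodes met the limits of at least 1000 UMIs, at least 500 genes and at most 20% mitochondrial UMIs. Of the barcodes that met the limits on UMIs and genes, the mitochondrial limit removed 65.7% to 78.0% in Fpr2f/f and 76.1% to 90.1% in Fpr2VKO libraries. The cells described are thus a minority of those captured. Among the kept barcodes, 124 occurred in more than 1 library, and the results were also computed without them. Fpr2 had 0 UMIs in the cells and in the free RNA of all 6 libraries, so its deletion could not be checked here. Cells were clustered without the interferon response genes and named from markers of stem cells, of dividing transit-amplifying (TA) cells and of enterocytes, Paneth, goblet, enteroendocrine and tuft cells, with the ending "-like" because the names rest on transcripts alone. After removal of likely doublets, 16357 epithelial cells remained, among them 1654 goblet-like and 2280 enterocyte-like cells and 8176 cells that stayed unnamed. UMIs were summed per library and class and are given as CPM, the count scaled to the same total for every sum.

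Promoters are shown for 2 of the 3 members that passed the test in goblet-like cells (Oasl2 and Trim30d), for Ddx60, and for Isg15 and Irf1, 2 members whose groups overlapped in goblet-like cells, so that the letters can be set beside the values below. The promoter sequences come from RefSeq on the build GRCm38.p6, and 33 of the 43 members had an entry. Each line gives the 250 bases before the transcription start on the strand of the gene, with matches to the ISRE (GAAANNGAAA) or the GAS (TTCNNNGAA), searched on both strands, in capitals. The windows lie at chr5:114896684-114896933 (plus strand, Oasl2), chr7:104507850-104508099 (minus strand, Trim30d), chr8:61927837-61928086 (plus strand, Ddx60), chr4:156200819-156201068 (minus strand, Isg15) and chr11:53769764-53770013 (plus strand, the first of the Irf1 starts).
Oasl2: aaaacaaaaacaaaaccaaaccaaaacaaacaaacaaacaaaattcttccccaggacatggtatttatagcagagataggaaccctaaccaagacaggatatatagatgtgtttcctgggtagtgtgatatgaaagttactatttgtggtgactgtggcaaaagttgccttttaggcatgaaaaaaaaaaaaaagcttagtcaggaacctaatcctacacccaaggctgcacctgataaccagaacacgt
Trim30d: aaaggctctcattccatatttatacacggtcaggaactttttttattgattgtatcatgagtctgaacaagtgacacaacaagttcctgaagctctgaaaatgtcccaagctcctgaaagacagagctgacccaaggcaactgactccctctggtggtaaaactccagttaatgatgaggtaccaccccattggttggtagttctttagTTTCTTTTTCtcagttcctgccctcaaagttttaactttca
Ddx60: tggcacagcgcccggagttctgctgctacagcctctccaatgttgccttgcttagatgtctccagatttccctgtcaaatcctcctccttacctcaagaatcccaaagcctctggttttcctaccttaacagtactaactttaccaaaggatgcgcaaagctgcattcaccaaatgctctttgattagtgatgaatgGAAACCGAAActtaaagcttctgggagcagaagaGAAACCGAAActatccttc
Isg15: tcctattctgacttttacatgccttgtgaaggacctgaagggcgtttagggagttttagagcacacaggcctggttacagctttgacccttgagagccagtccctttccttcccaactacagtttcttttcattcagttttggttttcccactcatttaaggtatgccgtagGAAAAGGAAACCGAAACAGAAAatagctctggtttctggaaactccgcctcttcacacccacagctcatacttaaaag
Irf1: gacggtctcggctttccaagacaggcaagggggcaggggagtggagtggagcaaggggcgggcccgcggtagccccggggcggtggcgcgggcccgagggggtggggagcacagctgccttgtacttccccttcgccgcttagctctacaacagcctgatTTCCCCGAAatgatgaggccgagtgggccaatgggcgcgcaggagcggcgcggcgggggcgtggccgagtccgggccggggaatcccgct

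The Ddx60 window held 2 separate ISRE matches, the Trim30d window held 1 on the opposite strand, and the 3 matches of Isg15 overlapped each other. The Irf1 window held a GAS match, and these letters were not found in the Oasl2 window. Counted over 250 bases before and 50 after each start, 20 of the 33 members (60.6%) held an ISRE match, against 3.99% of 27025 genes with a promoter entry. A GAS match was found in 8 of the 33 members (24.2%), against 9.55% of all genes. A match describes letters and does not show that a factor binds there.

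Goblet-like cells, the mucus-making class, were the only class in which edgeR called a member. In the edgeR quasi-likelihood test with Benjamini-Hochberg adjustment over all genes, 3 of the 35 members tested, Oasl2, Trim30d and Rtp4, rose in Fpr2VKO at an adjusted p under 0.05, where 0.199% of all 10054 genes passed. DESeq2, whose own filter on low counts left 1 member (Ddx60) and 1615 genes with an adjusted p in this class, called Ddx60 and 2.41% of those genes. All libraries of 1 group lay above all libraries of the other for 19 of the 35 members, each time higher in Fpr2VKO, a pattern that 7.93% of all genes showed. At an unadjusted p under 0.05, 18 of the 35 were higher in Fpr2VKO, against 3.61% of all genes. The median log2 fold change of the 35 members was 0.47, and that of all genes tested was near 0. Of the 35 members, 31 had a fold change above 0. The other 8 matched members (Oas1g, Ifit2, Ifit3, Usp18, Igtp, Iigp1, Gbp3 and Gbp6) had too few UMIs in this class to be tested.

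**Figure D1:**
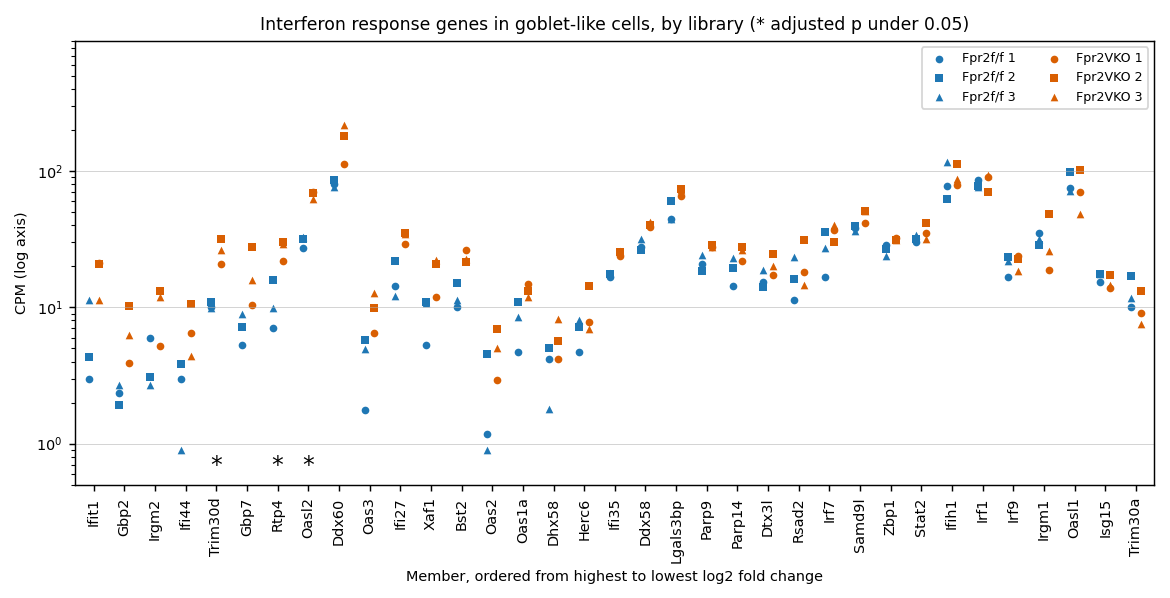
Level of each tested member in goblet-like cells, in CPM on a log axis, with 1 point per library (blue, 3 Fpr2f/f libraries; orange, 3 Fpr2VKO libraries) and members ordered by log2 fold change. Stars mark the 3 members with an adjusted p under 0.05, Trim30d, Rtp4 and Oasl2, whose orange points all lie above the blue ones.

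Among the sensors of viral RNA and the oligoadenylate synthetase (OAS) family, Oasl2 (chr5:114896936-114912234, plus strand), an OAS-like protein, stood at 27.2, 31.7 and 32.8 CPM in Fpr2f/f and at 70.4, 68.6 and 62.5 CPM in Fpr2VKO goblet-like cells. The groups were far apart relative to their spread, and the log2 fold change was 1.08 ± 0.15 (SE, n = 3 and 3, edgeR adjusted p = 0.000248). Ddx60 (chr8:61928087-62038244, plus strand), a helicase that helps the RIG-I-like sensors, had 80.5, 85.9 and 76.4 CPM in Fpr2f/f and 113, 179 and 215 CPM in Fpr2VKO libraries. These groups did not overlap either, but the Fpr2VKO libraries were widely spread, and the log2 fold change of 1.00 ± 0.21 did not pass the test (edgeR adjusted p = 0.148). Ddx60 passed in 7 of the 16 alternatives, among them the fit without Fpr2VKO replicate 1 (log2 fold change 1.24, edgeR adjusted p = 2.13e-06). Ddx58, which encodes the sensor RIG-I, had 27.8, 26.5 and 31.5 CPM against 38.8, 40.4 and 42.3 CPM, with no overlap (log2 fold change 0.46, edgeR adjusted p = 0.380). Ifih1, which encodes the sensor MDA5, had 77.5, 61.8 and 116 CPM in Fpr2f/f and 78.1, 112 and 87.7 CPM in Fpr2VKO libraries, so the groups overlapped. The enzyme Oas1a makes oligoadenylates that activate RNase L, and its groups did not overlap, with 4.73, 10.98 and 8.54 CPM against 14.9, 13.3 and 11.99 CPM (log2 fold change 0.59, edgeR adjusted p = 0.602). Oasl1, known as a repressor of IRF7 translation, overlapped between the groups, since it had 75.1, 97.8 and 71.4 CPM in Fpr2f/f and 69.4, 101 and 48.6 CPM in Fpr2VKO goblet-like cells.

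Among the antiviral effectors, Ifit1, which binds RNA that lacks the cap marks of the host, had 2.96, 4.29 and 11.2 CPM in Fpr2f/f and 21.0, 20.9 and 11.4 CPM in Fpr2VKO goblet-like cells. The highest Fpr2f/f library thus nearly met the lowest Fpr2VKO library, and the log2 fold change was 1.56 ± 0.35 (edgeR adjusted p = 0.0789). Ifit1 passed without Fpr2f/f replicate 3 (log2 fold change 2.19, edgeR adjusted p = 0.00322) and without Fpr2VKO replicate 3 (1.75, edgeR adjusted p = 0.0147). With all 6 libraries it passed when no filter on low counts was used (1.58, edgeR adjusted p = 4.3e-05). Ifi27, which encodes a small mitochondrial membrane protein, had 14.2, 21.7 and 12.1 CPM against 29.1, 34.8 and 34.7 CPM (log2 fold change 0.90, edgeR adjusted p = 0.0789). Bst2 encodes tetherin, which holds budding virus at the cell surface. It had 10.1, 15.03 and 11.2 CPM in Fpr2f/f and 26.5, 21.5 and 22.7 CPM in Fpr2VKO libraries (log2 fold change 0.86, edgeR adjusted p = 0.127). Xaf1, a factor that binds the apoptosis inhibitor XIAP, had 5.32, 10.98 and 10.8 CPM against 11.9, 20.9 and 22.1 CPM (log2 fold change 0.86, edgeR adjusted p = 0.307). In these 4 members every Fpr2VKO library was above every Fpr2f/f library, and none passed in the main fit. Ifi27 passed in 4 of the 16 alternatives. Among them were the fit without Fpr2f/f replicate 2 (log2 fold change 1.31, edgeR adjusted p = 0.0252) and, with all 6 libraries, doublets kept (0.86, edgeR adjusted p = 0.0391). Rsad2, which encodes viperin, overlapped between groups, with 11.2, 16.0 and 23.4 CPM against 18.1, 31.2 and 14.5 CPM.

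Trim30d (chr7:104470014-104507849, minus strand), a member of the TRIM30 family of RING-finger proteins, had 10.1, 10.98 and 9.88 CPM in Fpr2f/f and 20.7, 31.5 and 26.5 CPM in Fpr2VKO goblet-like cells. It rose by 1.28 ± 0.23 on the log2 scale (edgeR adjusted p = 0.00716), and the Fpr2f/f libraries lay close together. Its neighbour Trim30a (chr7:104409025-104465193, minus strand) did not follow, with 10.1, 16.9 and 11.7 CPM against 9.04, 13.3 and 7.57 CPM. The 2 genes are similar in sequence, and how reads that fit both were counted is not given in the sources used here. Rtp4 (chr16:23520291-23614222, plus strand), a chaperone that carries G protein-coupled receptors to the cell surface, had 7.10, 15.7 and 9.88 CPM in Fpr2f/f and 21.96, 30.2 and 29.03 CPM in Fpr2VKO libraries. Its log2 fold change was 1.13 ± 0.24, just inside the threshold (edgeR adjusted p = 0.0419). Trim30d did not pass when replicate 2 of Fpr2f/f or of Fpr2VKO was left out (edgeR adjusted p = 0.0555 and 0.0818), and Rtp4 did not pass without Fpr2f/f replicate 1 or 3, without Fpr2VKO replicate 2 or 3, or without the barcodes shared between libraries, nor with at least 2000 UMIs per barcode (edgeR adjusted p from 0.0791 to 0.261). Of the guanylate-binding GTPases, Gbp7 had 5.32, 7.16 and 8.98 CPM against 10.3, 27.8 and 15.8 CPM, with no overlap (log2 fold change 1.28, edgeR adjusted p = 0.176), and passed without Fpr2VKO replicate 1 (1.61, edgeR adjusted p = 0.00728). Irgm1, an immunity-related GTPase, had 34.9, 28.4 and 31.5 CPM in Fpr2f/f and 18.7, 48.1 and 25.9 CPM in Fpr2VKO libraries, which lay on both sides of Fpr2f/f. Lgals3bp, a secreted glycoprotein, had 44.4, 60.1 and 44.5 CPM against 65.6, 74.2 and 71.9 CPM, without overlap (log2 fold change 0.43, edgeR adjusted p = 0.362). Of the 19 members without overlap, those not yet given, Oas3, Ifi35, Ifi44, Samd9l, Zbp1, Gbp2 and Parp9, had log2 fold changes from 0.22 to 1.55 and did not pass the test.

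The groups overlapped for the 4 transcription factors of the signal, and for their target Isg15, in goblet-like cells. Irf1 had 86.4, 76.8 and 76.4 CPM in Fpr2f/f and 90.7, 70.6 and 93.4 CPM in Fpr2VKO libraries. Irf7, the factor that amplifies type I interferon, had 16.6, 35.8 and 27.4 CPM against 37.1, 30.2 and 40.4 CPM. Stat2 had 30.2, 31.5 and 34.1 CPM against 35.2, 41.4 and 31.6 CPM, and Isg15 had 15.4, 17.7 and 17.5 CPM against 13.9, 17.2 and 14.5 CPM. Irf9 had 16.6, 23.4 and 22.01 CPM against 23.9, 22.5 and 18.3 CPM. The lowest of the 3 Fpr2f/f libraries for Irf7 lay well below the other values of that gene. Summed over the 43 members, goblet-like cells held 776, 883 and 874 CPM in Fpr2f/f and 1048, 1345 and 1201 CPM in Fpr2VKO libraries, without overlap.

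The goblet-like class joined 3 clusters. In the cluster led by Zg16 and Clca1 (549 cells, with most of the UMIs of the class in every library), Oasl2 had 24.6, 31.4 and 29.0 CPM in Fpr2f/f and 71.6, 70.3 and 71.6 CPM in Fpr2VKO libraries. In the cluster led by Ern2 and Fcgbp (743 cells), Oasl2 had 47.1, 41.5 and 45.4 CPM against 80.8, 74.2 and 39.3 CPM. There the third Fpr2VKO library, with 11 Oasl2 UMIs, lay below all Fpr2f/f libraries, so the groups overlapped in this cluster and not in the first. Ddx60 overlapped in this cluster too, with 227, 118 and 107 CPM against 153, 236 and 154 CPM. Trim30d and Rtp4 were separate in both clusters, Rtp4 here on 1 to 12 UMIs per library. The first cluster held 68, 127 and 66 of 264, 397 and 304 Fpr2f/f goblet-like cells. In Fpr2VKO it held 78, 147 and 63 of 238, 300 and 151, each a larger share than in any Fpr2f/f library, and the part of this shift was not tested. The smallest cluster, led by Ern2 and Selenom (362 cells), held at most 3 Oasl2 UMIs in a library. Cells of the class numbered 151 to 397 per library, and the cell richest in Oasl2 held 5.80% to 13.1% of a library's Oasl2 UMIs in the class. For Trim30d this share was 7.37% to 17.6%, and for Ddx60 8.82% to 24.3%. For Rtp4 it reached 41.7% in Fpr2f/f replicate 1, where the class held 12 Rtp4 UMIs, and 27.3% in Fpr2f/f replicate 3, against 7.58% to 19.6% in the other 4 libraries.

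Counted by cell, the groups were separate for Oasl2 at the depth found and overlapped once depth was made equal. In 10.2%, 15.9% and 11.2% of the Fpr2f/f and in 30.3%, 25.7% and 22.5% of the Fpr2VKO goblet-like cells at least 1 Oasl2 UMI was found, but median depth also differed, with 2308, 4779 and 3338 UMIs per cell against 4966, 4775 and 4404. After each cell was thinned to 2000 UMIs, leaving out 114, 53 and 67 shallower Fpr2f/f and 16, 45 and 24 Fpr2VKO cells, the shares were 9.33%, 4.94% and 5.49% in the Fpr2f/f and 8.11%, 11.8% and 9.45% in the Fpr2VKO libraries, so that the groups overlapped. For Ddx60 they did not: the thinned shares were 8.67%, 9.01% and 9.28% against 13.5%, 16.1% and 21.3%. For Trim30d the thinned shares were 3.33%, 3.78% and 1.69% in the Fpr2f/f and 2.25%, 2.75% and 3.15% in the Fpr2VKO libraries, so that they overlapped and were no higher in Fpr2VKO. These shares rest on few cells and 1 random draw, so they cannot decide whether Trim30d differs by cell. For Rtp4 they were at most 2.03% in Fpr2f/f and at least 3.14% in Fpr2VKO libraries, separate but resting on few cells. In Paneth-like cells, taken as a class with little Oasl2, the thinned share of cells with an Oasl2 UMI was 0% to 3.55%. Goblet-like cells with no UMI of any member made up 35.3%, 25.6% and 35.4% in the Fpr2f/f and 27.0%, 21.6% and 27.6% in the Fpr2VKO libraries after thinning, with the second Fpr2f/f library inside the Fpr2VKO range.

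**Figure D2:**
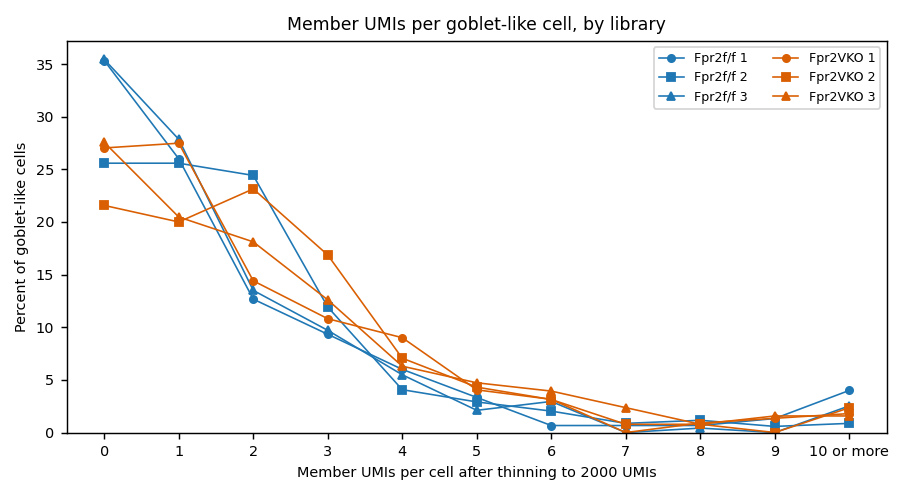
Percent of goblet-like cells (vertical axis) by the number of member UMIs per cell after thinning to 2000 UMIs (horizontal axis), with 1 line per library. Cells without a member UMI are the largest or nearly the largest bin in every library, at 35.3% and 35.4% in Fpr2f/f replicates 1 and 3 and between 21.6% and 27.6% in the other 4 libraries.

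Free RNA, taken here as barcodes under 100 UMIs, held some of the same pattern at a lower level. There Oasl2 had 7.94, 7.77 and 9.56 CPM in Fpr2f/f and 11.4, 12.8 and 13.3 CPM in Fpr2VKO libraries. The mean difference between the groups was 4.09 CPM in free RNA and 36.6 CPM in goblet-like cells. For Trim30d the mean difference was 2.17 CPM in free RNA against 15.9 CPM in goblet-like cells, for Rtp4 2.08 against 16.1 CPM, and for Ddx60 2.57 against 88.2 CPM. Of the 35 members at a mean of at least 1 CPM in free RNA, 7 were higher in Fpr2VKO without overlap, against 2.93% of the 14218 genes at that level, and 2 (Stat2 and Trim30a) were lower, against 15.9%. Markers of other cells were also summed in the goblet-like class. The 12 enterocyte markers stood at 1241, 1118 and 1122 CPM in Fpr2f/f and at 1488, 1423 and 1662 CPM in Fpr2VKO libraries, higher in Fpr2VKO without overlap, and their part in the result was not tested. The 6 markers of B and plasma cells were separate too, at 1.18, 2.86 and 2.25 CPM against 2.91, 3.31 and 4.42 CPM, and their part was not tested either. The 10 markers of T and NK cells had 4.73, 10.5 and 20.7 CPM against 24.9, 5.63 and 7.57 CPM, and the 9 Paneth markers 3309 to 6239 CPM against 4157 to 7695 CPM, so both lists overlapped between the groups.

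Over all epithelial cells, 42 members were tested, and Oasl2 came closest to the threshold. It had 9.31, 10.7 and 12.9 CPM in Fpr2f/f and 20.9, 20.1 and 19.3 CPM in Fpr2VKO libraries, and the log2 fold change was 0.91 ± 0.14 (edgeR adjusted p = 0.0512). It passed in 8 of the 16 alternatives, among them the fit without Fpr2f/f replicate 1 (0.79, edgeR adjusted p = 0.0153). With edgeR, 0 of the 42 members passed, where 0.0303% of all 16526 genes did. DESeq2 called 6 of them, Oasl2, Ddx60, Ifi27, Rtp4, Ifi44 and Iigp1, all higher in Fpr2VKO, where it called 0.664% of the 15367 genes with an adjusted p. At an unadjusted p under 0.05, 17 of the 42 were higher in Fpr2VKO, against 3.72% of all genes. For 14 members the groups did not overlap and Fpr2VKO was higher, against 3.42% of all genes. In the opposite direction this held for 1 member, Stat2, against 10.2% of all genes. The median log2 fold change of the members was 0.37, and 35 of the 42 were above 0. The mix of cells differed as well. The 10 stem cell markers summed to 1418, 1014 and 1283 CPM in Fpr2f/f and to 2482, 2250 and 2269 CPM in Fpr2VKO epithelial cells, without overlap. Stem-like cells numbered 45, 48 and 37 against 89, 178 and 67 per library. The 6 fibroblast markers were low and lay lower in Fpr2VKO without overlap, at 0.923, 1.18 and 0.88 CPM against 0.757, 0.46 and 0.872 CPM. The median depth of kept barcodes was separate as well, with 3033, 4602 and 4612 UMIs in Fpr2f/f and 6358, 6728.5 and 6686.5 UMIs in Fpr2VKO libraries. The part of these shifts in the member values was not tested.

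Ddx60 had 10.2, 11.8 and 11.9 CPM in Fpr2f/f and 17.9, 22.2 and 19.8 CPM in Fpr2VKO epithelial cells (log2 fold change 0.86, edgeR adjusted p = 0.0736), and passed in 5 of the 16 alternatives, among them a mitochondrial limit of 10% (1.65, edgeR adjusted p = 0.00599). Ifi27 had 8.06, 11.6 and 8.24 CPM against 17.6, 20.7 and 15.7 CPM (log2 fold change 0.98, edgeR adjusted p = 0.165). Trim30d had 13.8, 11.8 and 18.6 CPM against 19.9, 22.6 and 20.5 CPM (log2 fold change 0.56, edgeR adjusted p = 0.347). The groups were separate in all 3, by the least margin in Trim30d. Rtp4, at a lower level, had 2.29, 4.28 and 4.18 CPM against 9.14, 7.77 and 7.64 CPM (log2 fold change 1.20, edgeR adjusted p = 0.141). Ifi44, a cytoplasmic protein of the same response, had 2.25, 1.62 and 1.89 CPM against 3.49, 4.65 and 4.19 CPM (log2 fold change 1.17, edgeR adjusted p = 0.1005). Without Fpr2f/f replicate 1, Ddx60, Rtp4 and Ifi44 passed as well (edgeR adjusted p = 0.0383, 0.0191 and 0.0389).

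Members with high counts over all epithelial cells showed no such separation. Irf1 had 107, 101 and 104 CPM in Fpr2f/f and 101, 85.3 and 107 CPM in Fpr2VKO libraries. Lgals3bp had 104, 84.0 and 79.0 CPM against 94.8, 107 and 93.3 CPM, and Ifih1 had 47.5, 36.7 and 43.1 CPM against 42.95, 44.2 and 42.7 CPM. The partners Parp9 and Dtx3l, which together attach ubiquitin and ADP-ribose, lie head to head on chromosome 16 with overlapping ends. Parp9 had 29.4, 19.9 and 24.0 CPM against 26.0, 26.1 and 27.8 CPM, and Dtx3l had 31.3, 21.3 and 24.8 CPM against 24.9, 24.7 and 27.9 CPM. Ifi35, which binds the regulator NMI, had 24.3, 22.3 and 21.8 CPM against 25.9, 23.0 and 22.6 CPM. All of these overlapped between the groups. Irgm1 had 30.9, 20.3 and 20.2 CPM in Fpr2f/f and 10.7, 23.7 and 13.5 CPM in Fpr2VKO libraries, with the second Fpr2VKO library inside the Fpr2f/f range.

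Neither these transcription factors nor Isg15 passed the test over all epithelial cells in edgeR or DESeq2. Irf9 had 17.8, 16.3 and 16.5 CPM in Fpr2f/f and 18.5, 18.6 and 18.9 CPM in Fpr2VKO libraries (log2 fold change 0.20, edgeR adjusted p = 0.606). Stat2, its partner, had 14.96, 16.3 and 16.98 CPM against 14.7, 14.8 and 14.95 CPM (log2 fold change -0.08, edgeR adjusted p = 0.858). Both were separate by small steps, in opposite directions. Irf7 had 7.38, 17.7 and 13.1 CPM against 12.8, 9.68 and 9.52 CPM, and Isg15 had 2.97, 5.35 and 6.76 CPM against 7.79, 5.56 and 3.92 CPM, each overlapping. Igtp had 0 UMIs in every class and library. Its annotated span (chr11:58199556-58207591) lies almost wholly within that of Irgm2 (chr11:58199618-58222782) on the same strand, so reads of the 2 genes may not be told apart.

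**Figure D3:**
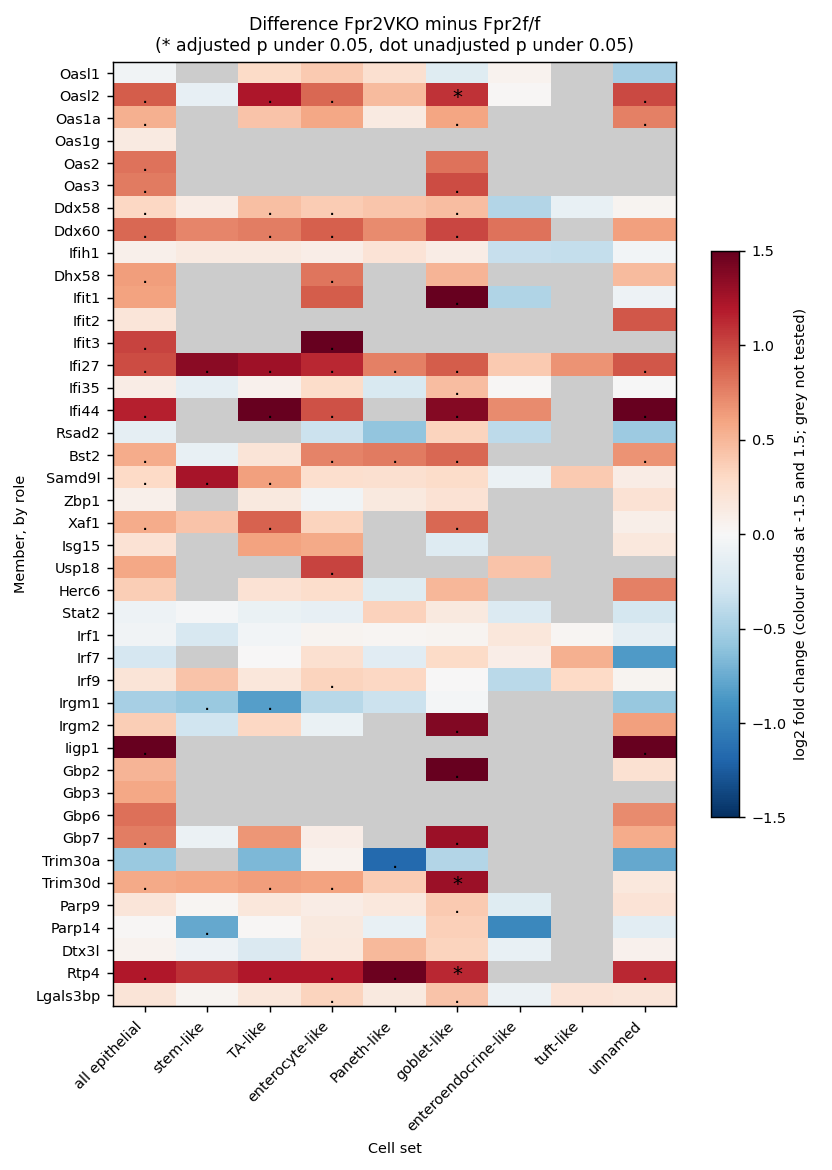
Log2 fold change, Fpr2VKO minus Fpr2f/f, for each tested member (rows, by role) in each set of cells (columns), with grey where a member was not tested. Stars mark an adjusted p under 0.05 (Oasl2, Trim30d and Rtp4 in goblet-like cells), and dots an unadjusted p under 0.05; Ifi27 is above 0 in all 9 columns, and Irgm1 is below 0 in all 7 in which it was tested.

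In enterocyte-like cells, the absorptive class, 34 members were tested and 0 passed in edgeR, where 0.0178% of all genes did, while DESeq2 called 3, Oasl2, Trim30d and Ifi27, of the 32 members with an adjusted p, where it called 0.572% of 10308 genes. Unadjusted, 13 members were higher in Fpr2VKO at p under 0.05, against 4.78% of all genes. The groups did not overlap, with Fpr2VKO higher, for 10 members, against 6.09% of all genes. Trim30d had 60.5, 47.6 and 52.8 CPM in Fpr2f/f and 78.9, 83.9 and 72.6 CPM in Fpr2VKO libraries (log2 fold change 0.60, edgeR adjusted p = 0.142). Oasl2 had 15.8, 22.6 and 23.1 CPM against 42.7, 40.5 and 27.2 CPM (log2 fold change 0.86, edgeR adjusted p = 0.142). In Oasl2 the third Fpr2VKO library stood well below the other two, yet above all Fpr2f/f libraries. Ifi27 had 8.60, 17.5 and 8.98 CPM against 25.9, 30.98 and 18.3 CPM (log2 fold change 1.13, edgeR adjusted p = 0.297). Ddx60 had 9.31, 11.5 and 12.3 CPM against 25.4, 21.2 and 14.0 CPM (log2 fold change 0.89, edgeR adjusted p = 0.173). Oasl2 and Ddx60 passed without Fpr2VKO replicate 3 (edgeR adjusted p = 0.0226 and 0.0271), and Trim30d without Fpr2f/f replicate 1 (edgeR adjusted p = 0.04). Irf1 had 161, 161 and 159 CPM against 167, 154 and 162 CPM and did not separate the groups. The median log2 fold change was 0.33, with 29 of 34 above 0. Median depth per cell was higher in Fpr2VKO without overlap, at 3122, 4834 and 4999 against 6429.5, 13262 and 9940 UMIs, and its part was not tested. The 12 enterocyte markers had 10110, 9325 and 11649 CPM in Fpr2f/f and 14401, 15397 and 11112 CPM in Fpr2VKO enterocyte-like cells, with the third Fpr2VKO library inside the Fpr2f/f range. The 6 markers of B and plasma cells were lower in Fpr2VKO without overlap, at 2.51, 3.15 and 2.11 CPM against 1.25, 1.44 and 0.986 CPM, and their part was not tested.

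In TA-like cells, dividing cells whose clusters were led mainly by mitosis genes, 0 of 29 members passed in edgeR, where 0.00865% of all genes did. DESeq2 called 0 of 42 members and 0.0165% of all genes. At an unadjusted p under 0.05 there were 10 members, 9 higher and 1 (Irgm1) lower in Fpr2VKO, against 4.43% of all genes in either direction. The groups did not overlap, with Fpr2VKO higher, for 6 members, against 4.08% of all genes. Oasl2 had 6.08, 6.80 and 4.51 CPM in Fpr2f/f and 13.5, 10.2 and 17.6 CPM in Fpr2VKO libraries (log2 fold change 1.22, edgeR adjusted p = 0.185). Ifi27 had 2.58, 6.80 and 3.56 CPM against 11.6, 11.2 and 9.43 CPM (log2 fold change 1.27, edgeR adjusted p = 0.389). Both were separate between the groups at low levels. Irgm1 had 42.2, 32.6 and 23.0 CPM against 11.3, 27.5 and 15.5 CPM, with an overlap through the second Fpr2VKO library. Irf1, Lgals3bp and Ifih1 overlapped in this class, with 97.3 to 130 CPM, 99.0 to 138 CPM and 35.8 to 46.8 CPM over the 6 libraries. The 12 enterocyte markers summed to 1101, 1249 and 1034 CPM in Fpr2f/f and to 1592, 1703 and 1502 CPM in Fpr2VKO TA-like cells, without overlap. The 8 myeloid markers were lower in Fpr2VKO without overlap, at 27.3, 27.5 and 33.0 CPM against 25.5, 25.1 and 24.97 CPM, and the part of either list was not tested. Median depth per cell was higher in Fpr2VKO without overlap, at 7010, 7510.5 and 6575.5 against 8505.5, 10106.5 and 8305 UMIs, and its part was not tested either.

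In stem-like cells (37 to 178 per library), 0 of 21 members passed in edgeR, where 0.0205% of all genes did, and DESeq2 called 0 of 42 members and 0.0144% of all genes. An unadjusted p under 0.05 was found for 4 members, 2 higher and 2 lower in Fpr2VKO, against 6.24% of all genes. Ifi27 had 2.88, 7.48 and 9.51 CPM in Fpr2f/f and 13.6, 17.9 and 18.1 CPM in Fpr2VKO libraries (log2 fold change 1.35, edgeR adjusted p = 0.332). Including Irf9, 2 members were higher without overlap, against 5.16% of all genes. Irgm1 had 25.9, 29.9 and 25.7 CPM against 12.4, 22.6 and 20.4 CPM (log2 fold change -0.55, edgeR adjusted p = 0.751). Parp14, an ADP-ribosyltransferase, had 12.2, 15.6 and 11.4 CPM against 7.97, 5.59 and 10.7 CPM (log2 fold change -0.76, edgeR adjusted p = 0.730). With Dtx3l, which differed by the smallest margin, 3 members were lower without overlap, against 6.16% of all genes. Oasl2 was not separate in this class, with 11.5, 18.1 and 24.7 CPM against 12.98, 10.96 and 27.8 CPM (log2 fold change -0.12). In 2 alternatives Oasl2 was higher in Fpr2VKO and passed. These were a mitochondrial limit of 40% (log2 fold change 1.02, edgeR adjusted p = 0.0238) and doublets kept (1.23, edgeR adjusted p = 0.0428). Lgals3bp (95.1 to 128 CPM), Irf1 (64.4 to 93.2 CPM) and Ifih1 (24.7 to 46.8 CPM) overlapped too. The median log2 fold change over the 21 members was 0.03. In these cells the stem cell markers were higher in Fpr2VKO without overlap (10152, 10519 and 12382 CPM against 15425, 12509 and 13267 CPM), as were the enterocyte markers (578, 595 and 520.2 CPM against 667, 727 and 696 CPM) and the 10 tuft cell markers (4.75 to 5.76 CPM against 6.96 to 13.6 CPM). Their part in the member values was not tested.

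Paneth-like cells, the makers of antimicrobial peptides, had 0 of 25 members past the test in edgeR, where 0.00996% of all genes passed, and DESeq2 called 0 of 42 members and 0.00406% of all genes. At an unadjusted p under 0.05 there were 4, of which 3 were higher and 1 lower in Fpr2VKO, against 6.35% of all genes. Without overlap, 4 members were higher, against 3.22% of all genes, and 1 was lower, against 3.81%. Ifi27 had 4.92, 7.73 and 9.37 CPM in Fpr2f/f and 11.7, 17.2 and 11.5 CPM in Fpr2VKO libraries (log2 fold change 0.76, edgeR adjusted p = 0.621). Its mean difference of 6.17 CPM in these cells was close to the 5.88 CPM in free RNA. The member that was lower, Trim30a, had 13.1, 7.20 and 8.63 CPM against 3.09, 5.58 and 2.81 CPM (log2 fold change -1.16, edgeR adjusted p = 0.243), and it passed without Fpr2VKO replicate 2 (-1.65, edgeR adjusted p = 0.0247). In free RNA Trim30a had 81.7, 34.6 and 28.9 CPM in Fpr2f/f and 7.42, 19.3 and 5.57 CPM in Fpr2VKO libraries, a larger difference in the same direction. In immune-like cells, which were left out of the epithelial sums, Trim30a stood at 69.4, 79.6 and 96.9 CPM against 77.1, 94.0 and 65.4 CPM. Of the 1109 Paneth-like cells, 279 formed a cluster with only 1 Paneth marker among its 25 leading genes. The goblet marker Spink4 was among its leading genes too, and this cluster was not looked at apart. The 8 goblet cell markers in Paneth-like cells were lower in Fpr2VKO without overlap, at 28055, 22331 and 27487 CPM against 20039, 19282 and 19653 CPM. Median depth per cell was higher in Fpr2VKO without overlap, at 12344, 7644 and 14367 against 30559, 33166 and 22933 UMIs. The part of free RNA, of these markers and of depth in the Paneth-like values was not tested. Irf1 (25.5 to 39.9 CPM), Lgals3bp (17.4 to 29.0 CPM) and Ifih1 (11.1 to 20.2 CPM) overlapped between the groups.

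The unnamed cells were mixed. They held a deep cluster of 883 cells with the DNA replication genes Mcm4 and Mcm6 among its leading genes, so the TA-like class does not cover all dividing cells. A cluster of 198 cells was led by Ghrl and Neurog3. In the unnamed cells, 0 of 36 members passed in edgeR, where 0.00749% of all genes did. DESeq2 called Oasl2 and Ifi27 of the 39 members with an adjusted p, where it called 0.236% of 14437 genes. Unadjusted, p was under 0.05 for 7 members, all higher in Fpr2VKO, against 2.71% of all genes. The groups did not overlap, with Fpr2VKO higher, also for 7 members, against 7.25% of all genes. Bst2 had 9.66, 8.48 and 7.61 CPM in Fpr2f/f and 13.1, 15.5 and 13.6 CPM in Fpr2VKO libraries (log2 fold change 0.67, edgeR adjusted p = 0.463). The stem cell markers were higher in Fpr2VKO without overlap, at 1345, 1123 and 1743 CPM against 2254, 2209 and 3214 CPM, and their part was not tested. In the classes with fewest UMIs no tested member was higher in Fpr2VKO without overlap. In enteroendocrine-like cells, the hormone makers, 0 of 20 members passed in edgeR (0.0114% of all genes) and 0 of 42 in DESeq2 (0.00498%). There were also 0 at an unadjusted p under 0.05 (3.36% of all genes) and 0 without overlap and higher in Fpr2VKO (3.84%). In tuft-like cells, chemosensory cells of the epithelium, 0 of 8 members passed in edgeR (0.0289% of all genes) and 0 of 40 in DESeq2 (0.0062%). Again 0 had an unadjusted p under 0.05 (2.54%) and 0 were higher without overlap (4.71%). Tuft-like sums held only 123598 to 365118 UMIs per library, so a difference of the size seen for Oasl2 in goblet-like cells could be missed there. Oasl2, below the test's limit on low counts in tuft-like cells, had 32.7, 10.96 and 40.7 CPM in Fpr2f/f and 44.8, 97.1 and 73.9 CPM in Fpr2VKO libraries, without overlap. The sum over the 43 members in tuft-like cells, tested or not, was 826, 876 and 886 CPM against 925, 1327 and 1077 CPM, without overlap either. How often genes below the test's limit are separate in this way was not counted.

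A call in 1 class and none in another does not show that the classes differ, so the difference itself was tested over the unnamed cells and the 5 largest named classes, with the library as a block. For each class, its Fpr2VKO effect was set against the mean effect of the other 5. In this edgeR test 0 of 42 members passed in any of the 6 classes. Among all 13562 genes, 0.0147% passed in enterocyte-like cells. The share was 0.00737% in goblet-like cells, as in stem-like (0.00737%) and Paneth-like cells (0.00737%), and 0.0% in unnamed and in TA-like cells (0.0%). The lowest unadjusted p of any member belonged to Ifi44 in stem-like cells, where its log2 effect minus the mean of the other classes was -2.64 (edgeR adjusted p = 0.440). Trim30d in goblet-like cells had an effect 0.79 ± 0.26 above the mean of the other classes (edgeR adjusted p = 1). DESeq2 was not run for this test. This test does not show that the Oasl2, Trim30d or Rtp4 difference was particular to goblet-like cells.

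Some members lay on the same side of 0 in most or all classes, and 5 are given here that were picked from the 43 for this pattern. Irgm1 lay below 0 and the others mostly or always above. Further members that lay above 0 throughout, such as Ddx60 and Trim30d, are not given. Of the 7 named classes, Ifi27 was tested in 7 and was above 0 in 7, as were 7.77% of all genes tested in 7. It was higher without overlap in 5, which 0.15% of those genes reached. Oasl2 was tested in 6 and above 0 in 5 (20% of all genes tested in 6 were above 0 in at least 5), and it was higher without overlap in 4 (0.247%). Rtp4 was tested in 5, above 0 in 5 (7.76%) and higher without overlap in 4 (0.301%). Ifi44 was tested in 4, above 0 in 4 (7.87%) and higher without overlap in 3 (0.605%). Irgm1 was below 0 in each of the 5 classes in which it was tested, with log2 fold changes from -0.83 to -0.03, and so were 10.4% of all genes tested in 5. The classes come from the same 6 libraries, so these are not independent repeats.

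Levels also differed between classes, which is given as a description with no test. Of the 33 members with at least 10 CPM in a class, 12 were highest in tuft-like, 8 in goblet-like, 7 in enterocyte-like and 6 in enteroendocrine-like cells, by the mean of the 6 libraries. Tuft-like sums held only 123598 to 365118 UMIs per library, so 10 CPM there rests on few UMIs. Of the 12 members highest in tuft-like cells, only Samd9l and Oas2 were separate from the next class. Ddx60 reached 125 CPM in goblet-like cells, with enteroendocrine-like cells next at 29.1 CPM. Oasl1 reached 77.2 CPM in goblet-like cells, with enteroendocrine-like cells next at 23.7 CPM. In both, every goblet-like library was above every library of the next class. Samd9l, an antiviral factor, had 98.4 CPM in tuft-like and 42.7 CPM in goblet-like cells, and Oas2 had 42.2 CPM in tuft-like and 4.89 CPM in enteroendocrine-like cells. Trim30d had 66.1 CPM in enterocyte-like and 18.3 CPM in goblet-like cells, Irf1 161 CPM in enterocyte-like and 112 CPM in TA-like cells, and Lgals3bp 258 CPM in enteroendocrine-like and 117 CPM in TA-like cells. These steps also held without overlap of the libraries. Neighbours often did not: Oasl2 had 50.02 CPM in tuft-like and 48.9 CPM in goblet-like cells, with overlapping libraries, and 3.70 CPM in Paneth-like cells, its lowest class. In immune-like cells, not counted among these classes, the 3 members with most UMIs were Ifi27 (93.7 CPM), Trim30a (80.4 CPM) and Irf1 (77.8 CPM).

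**Figure D4:**
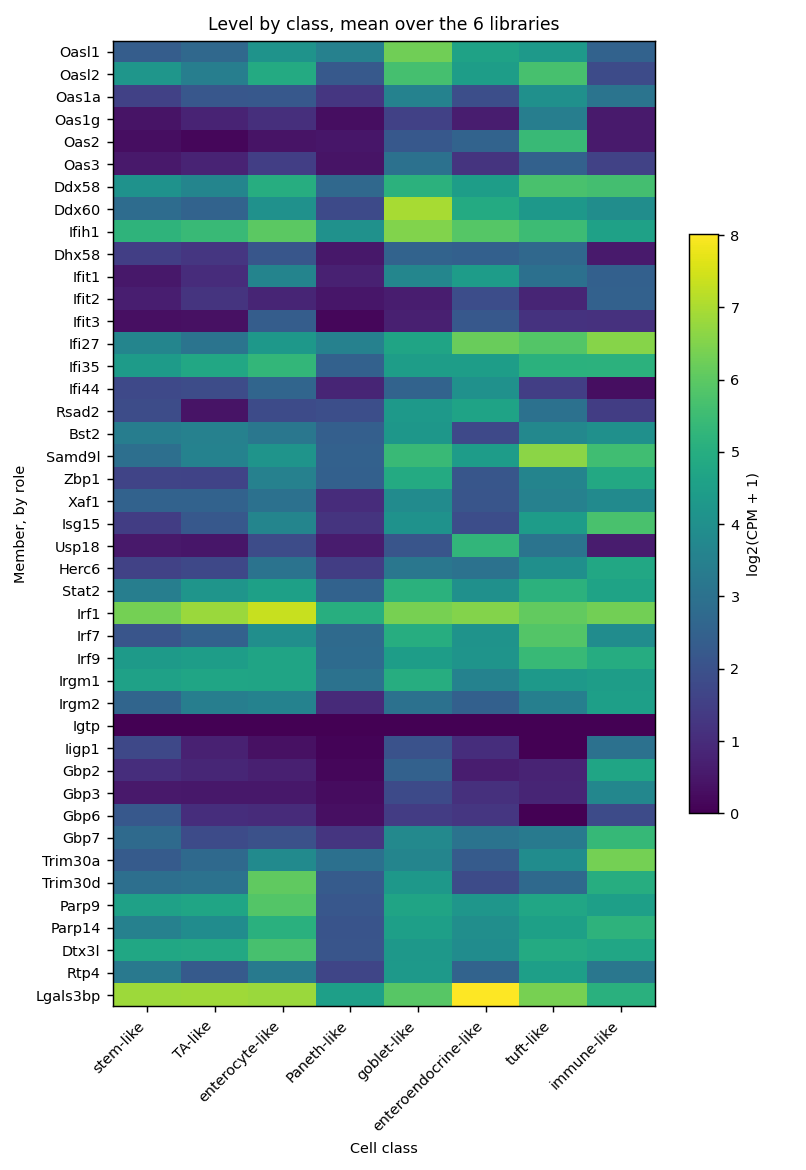
Mean level over the 6 libraries as log2(CPM + 1), for each member (rows, by role) in each class (columns), to be read along a row. Ddx60 and Oasl1 are brightest in goblet-like, Trim30d and Irf1 in enterocyte-like, Samd9l and Oas2 in tuft-like cells, and most rows are darkest in Paneth-like cells. The Paneth markers alone held 388840 to 452080 CPM of each Paneth-like sum.

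Within the rarer classes the top members overlapped between the groups. In tuft-like cells Samd9l had 98.0, 74.0 and 67.8 CPM in Fpr2f/f and 68.6, 194 and 87.8 CPM in Fpr2VKO libraries, Lgals3bp had 49.7 to 101 CPM and Irf1 28.0 to 87.6 CPM over all 6. In enteroendocrine-like cells Lgals3bp had 280, 338 and 179 CPM against 256, 297 and 200 CPM, Ifi27 had 57.1, 78.1 and 50.4 CPM against 84.4, 99.0 and 65.1 CPM, and Irf1 had 70.8 to 119 CPM over all 6. Summed over all 43 members, enteroendocrine-like cells and tuft-like cells stood near the level of enterocyte-like cells, and Paneth-like cells were the lowest class in every library. In Paneth-like cells the 9 Paneth markers alone held 388840 to 452080 CPM of each sum, which leaves less for every other gene. Their part in the low member level was not tested.

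**Figure D5:**
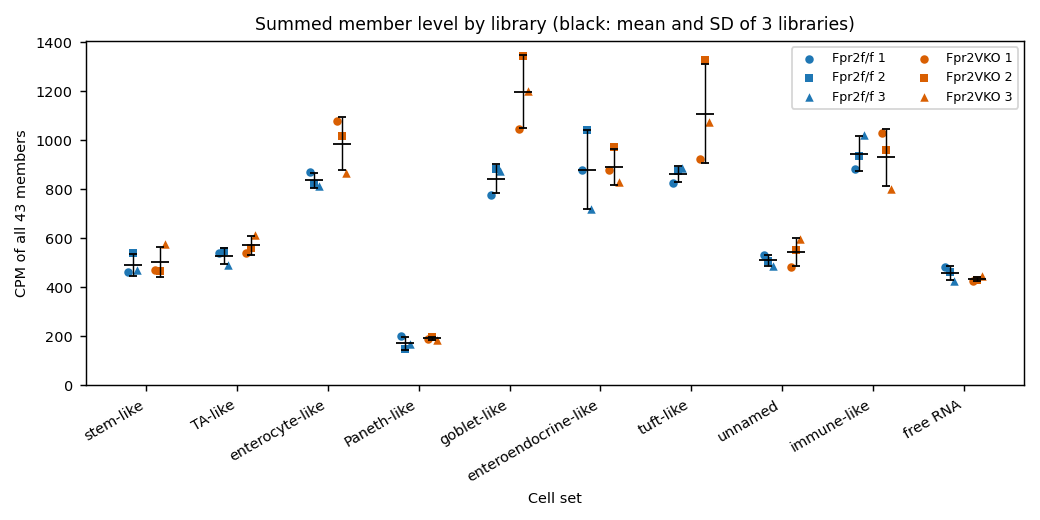
Summed level of the 43 matched members, in CPM, for each class and for free RNA, with 1 point per library and black bars for the mean and SD of 3 libraries. Goblet-like cells hold 776 to 883 in Fpr2f/f and 1048 to 1345 in Fpr2VKO libraries without overlap, while free RNA holds 426 to 485 and 428 to 445.

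A few cells held many member UMIs. Of 14153 epithelial cells thinned to 2000 UMIs, 56 held 10 or more UMIs of the members, 29 among 8192 Fpr2f/f and 27 among 5961 Fpr2VKO cells. These cells held 4.33% of all member UMIs, so most lay elsewhere. By class, 27 of the 56 were goblet-like, 12 enterocyte-like, 8 unnamed and 6 tuft-like, and 0 were Paneth-like. Of their member UMIs, 11.7% were Ddx60, 8.14% Ifih1, 8.02% Oasl1 and 5.85% Oasl2. Goblet-like cells with an Oasl2 UMI carried on average 6.64, 4 and 4.15 UMIs of other members in the Fpr2f/f and 4.72, 4.37 and 5.67 in the Fpr2VKO libraries. Those without an Oasl2 UMI carried 1.44, 1.68 and 1.496 against 1.73, 1.92 and 1.76. In every library the goblet-like cells with Oasl2 were thus richer in the other members, as a description of these cells at equal depth, and the same held in enterocyte-like and unnamed cells. In TA-like cells only Fpr2VKO replicate 3 reached the 10 cells with Oasl2 asked for here, and these carried 1.20 UMIs of other members, against 1.30 in cells without.

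The rest of the pathway was followed with a list of 90 genes that are no members, of which 88 matched. In edgeR 0 of the 65 tested over all epithelial cells passed, and 11 had an unadjusted p under 0.05, 8 higher and 3 lower in Fpr2VKO, where 9.11% of all genes had such a p in either direction and 0.0303% passed. Their median log2 fold change was 0.03, and 38 of 65 were above 0. In goblet-like cells 0 of 56 passed and 11 had an unadjusted p under 0.05, all 11 higher, where 3.61% of all genes were higher at such a p and 0.199% passed. Interferons themselves were nearly absent from the counts, with 15 UMIs over 10 ligand genes in all epithelial cells of the 6 libraries. Their receptors were present. Ifnlr1, the specific chain for type III interferon, had 8.10, 7.20 and 6.76 CPM in Fpr2f/f and 7.30, 6.87 and 5.87 CPM in Fpr2VKO epithelial cells. Ifnar1, for type I interferon, had 8.86, 9.70 and 10.03 CPM against 8.74, 8.06 and 10.1 CPM, and Ifngr1, for interferon gamma, had 81.6, 78.7 and 79.6 CPM against 87.7, 82.0 and 86.7 CPM. Only Ifngr1 of these 3 had separate groups. Among further interferon-stimulated genes of the list, 19 of the 22 tested in goblet-like cells were above 0, with a median log2 fold change of 0.31, where 49.6% of all genes were above 0. Of the sensors and adaptors of the list 3 of 9 were above 0 (median -0.11), of the negative regulators 2 of 8 (median -0.08), of the receptors 5 of 6 (median 0.27) and of the JAK-STAT genes 4 of 6 (median 0.06). The other regulators had 3 of 5 above 0 (median 0.10).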

How the data were processed

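Crypt cells of 3 Fpr2f/f and 3 Fpr2VKO libraries were measured with the MobiNova-100 droplet platform. The authors aligned reads to the mouse build mm10 (GRCm38) with MobiVision and deposited raw UMI counts per gene and barcode for all barcodes of the platform, so no cell had been removed. The submitters' processing notes name Seurat 4.0.0 for later steps, which were not used here. The annotation version and the treatment of reads that fit more than 1 gene are not given in the sources used here.

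Barcodes with at least 1000 UMIs, at least 500 genes and at most 20% mitochondrial UMIs were kept. Doublet scores came from 25% artificial doublets, and in each library 0.8% of cells per 1000 cells, those with the highest scores, were left out. Clustering used log-normalized values of 2000 variable genes, among them no member or pathway gene, and 30 principal components after an alignment on mutual nearest neighbours, with Leiden clusters at resolution 1 from a graph of 20 neighbours (leidenalg 0.10.2, Python 3.11.15). For naming, the markers of each class were averaged as log2 folds of a cluster over the rest, and the class with the top average was taken where this reached 0.5. In addition, at least 3 of its markers had to be above the rest and found in 10% or more of the cluster, at least 1 had to stand among the 25 leading genes, and no other class could have more markers in the leading 10. Clusters that failed this, or that were shallow without a marker among the leading 10, stayed unnamed. Free RNA was not removed. UMI counts were summed per library and class, and classes with at least 20 cells in every library were tested with edgeR 4.0.16 (R 4.3.3, TMM, filterByExpr, robust quasi-likelihood fit, all genes in 1 fit, Benjamini-Hochberg adjustment, threshold 0.05). The SE is the fold change divided by the square root of F. The script was tested on simulated data. DESeq2 1.42.0 was an alternative, beside other limits on barcodes, other normalization, no filter on low counts, no alignment, no doublet removal and leaving out each library.

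Members in the text are those called in any comparison, those without overlap between the groups with an absolute log2 fold change of at least 0.5 and at least 10 CPM in a class, the 8 with most CPM over all epithelial cells, the top 3 of each class, and Irf1, Irf7, Irf9, Stat2 and Isg15. Oasl1, Ddx58, Rsad2, Lgals3bp, Ifi44, Trim30a and Rtp4 values beyond this rule were chosen after their values were seen. Members and lists were chosen with earlier results of these data known. Positions are from GENCODE on GRCm38, matched by gene ID. The UMI total of a class in a library limits the precision, and thinned shares cover counting error only.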

Additional observations from a re-analysis of the deposited data

Results flagged for a closer look

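Free RNA, the barcodes under 100 UMIs that enter no comparison, held members whose Fpr2VKO libraries all lay above the Fpr2f/f libraries. Of these, the 5 with an Fpr2VKO mean of at least 5 CPM are given. This limit was set on the higher group alone. In Fpr2VKO free RNA the mean was 12.5 CPM for Oasl2, 7.96 CPM for Ddx60, 14.5 CPM for Ifi27, 6.66 CPM for Bst2 and 5.83 CPM for Isg15. The Fpr2f/f means were 8.43, 5.39, 8.59, 4.57 and 4.25 CPM in the same order, so Bst2 and Isg15 lay under 5 CPM there. Of the 35 members at a mean of at least 1 CPM in free RNA, 7 were higher and 2 (Stat2 and Trim30a) were lower in Fpr2VKO without overlap, against 2.93% and 15.9% of all genes at that level. Isg15 was separate in free RNA but overlapped in goblet-like cells and over all epithelial cells. The difference between free RNA and cells was not tested.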

How the results depend on the processing

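Oasl2, Trim30d and Rtp4, called in goblet-like cells, were higher in Fpr2VKO under every alternative run. Medians of the member fold changes stayed above 0 in all 16 alternatives in all epithelial (0.24 to 0.69), goblet-like (0.32 to 0.64), enterocyte-like (0.18 to 0.42) and TA-like cells (0.14 to 0.39), but ranged from -0.05 to 0.26 in stem-like, from -0.03 to 0.32 in Paneth-like and from -0.12 to 0.14 in enteroendocrine-like cells. In goblet-like cells Oasl2 passed in 15 of 16 alternatives. Trim30d passed in 13 and Rtp4 in 9. DESeq2 gave no adjusted p for these 3 genes (filtered as NA) and called 1 member, Ddx60. Trim30d did not pass without Fpr2f/f replicate 2 (adjusted p = 0.0555) or Fpr2VKO replicate 2 (0.0818), and Rtp4 ranged up to an adjusted p of 0.261 without Fpr2f/f replicate 3 and had 0.118 without shared barcodes, an alternative chosen after seeing the data, and 0.0791 with at least 2000 UMIs per barcode.

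In the counts of members called that follow, the percentage in brackets is the share of all genes called under the same alternative. Over all epithelial cells edgeR called 0 members (0.0303%), against 6 with DESeq2 (0.664%), 1 with RLE size factors (0.0484%), 9 with no filter (0.738%), 6 at a mitochondrial limit of 10% (0.723%), 1 with doublets kept (0.0421%), 1 without shared barcodes (0.0607%), and 0 to 4 when a library was left out, the 4 being without Fpr2f/f replicate 1 (0.637%). For goblet-like cells the number was 3 (0.199%), against 7 with no filter (0.291%), 5 at the 10% limit (0.178%), 5 with doublets kept (0.19%), and 1 to 5 when a library was left out, 5 without Fpr2VKO replicate 1 (0.182%), 1 without Fpr2VKO replicate 2 (0.16%) and 2 without Fpr2f/f replicate 1 (0.492%). Enterocyte-like cells gave 0 (0.0178%), against 3 with DESeq2 (0.572%), 6 with no filter (0.965%) and 0 to 2 when a library was left out, 2 without Fpr2VKO replicate 3 (0.208%) and 1 without Fpr2f/f replicate 1 (0.416%). Stem-like cells gave 0 (0.0205%), against 1 with no filter (0.168%), 4 at a limit of 40% (0.316%), 4 with no alignment, 1 higher and 3 lower (10.3%), and 1 with doublets kept (0.385%). Oasl2, higher in Fpr2VKO, was among the 4 at the 40% limit and was the 1 with doublets kept. TA-like cells gave 0 (0.00865%), against 2 with no filter (0.268%) and 1 with no alignment (0.083%). Paneth-like cells gave 0 (0.00996%), against 1 with doublets kept (0.808%) and 0 to 1 when a library was left out, the 1 being without Fpr2VKO replicate 2 (0.0779%). Unnamed cells gave 0 (0.00749%), against 2 with DESeq2 (0.236%) and 5 with no filter (0.822%). The test of differences between classes gave 0 to 1 when a library was left out, and the 1 was Oasl2 in stem-like cells without Fpr2VKO replicate 3 (log2 difference -1.46, adjusted p = 0.0327). The cause of these changes was not tested. Tuft-like cells at the 10% limit could not be fitted.

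Same-numbered libraries correlated at 0.0014 and -0.0067 for replicates 1 and 2, and at 0.38 for replicate 3, the highest value between the groups. Fpr2f/f replicate 3 had -0.22 and -0.17 with the other Fpr2VKO libraries. For each library the values balance around 0, as differences from a group mean do. They thus do not measure how alike whole profiles are, and a high value for 1 pair goes with low values for others. The third libraries of the groups shared 9 kept barcodes, against 2.245 for independent draws. Each of them shared 0 to 4 with the libraries of replicates 1 and 2. Among the libraries of replicates 1 and 2 each pair shared 8 to 23, against 2.54 to 5.54. The main fit held no term for this grouping, and its part was not tested. A replicate block gave 3 calls in all epithelial (0.175% of all genes were called), 4 in TA-like (1.28%), 3 in enterocyte-like (1.17%) and 6 in goblet-like cells (0.567%), each higher in Fpr2VKO except Irgm1 in TA-like cells (log2 fold change -0.84). The small classes were shallow, and the part of depth in their lack of calls was not tested. Tuft-like sums held 123598 to 365118 and enteroendocrine-like sums 436371 to 1332562 UMIs per library. In enteroendocrine-like cells the median member log2 fold change was -0.09, with 9 of 20 above 0, where 49.6% of all genes were.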
